A study of Mus musculus with 20 samples.

Results

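The genes described here encode the proteins of the cytosolic ribosome, measured by RNA-seq in the back skin of hairless SKH-1 mice. Members were the rows of the count table whose symbol begins with Rpl or Rps and a digit, together with Rplp0, Rplp1, Rplp2 and Rpsa, without the names holding -ps (19 rows) and without the S6 kinase genes beginning Rps6k (10 rows). The rule gave 87 of 22090 genes, 52 named Rpl for the large (60S) subunit and 35 named Rps for the small (40S) subunit. Of these, 77 are core proteins of the ribosome (46 of the 60S and 31 of the 40S subunit), 8 are paralogs of core proteins, and Rpl7l1 and Rps19bp1 share the naming pattern without being structural proteins of the cytosolic ribosome.

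The 20 samples were 8 normal skin (NS), 8 actinic keratoses (AK, the premalignant lesion) and 4 cutaneous squamous cell carcinomas (cSCC), with 1 library per tissue. The mice were females of 7 months when the experiment began and older when the tissues were taken, after months of irradiation in the irradiated mice, and no group carried a transgene or a drug treatment. 4 mice were irradiated with ultraviolet light and gave 1 NS, 2 AK and 1 cSCC each, and 4 mice without irradiation gave the other NS. The labels of single samples state neither the mouse nor the irradiation of an NS tissue, so NS is a mixture of irradiated and unirradiated skin, irradiation cannot be told apart from lesion in AK and cSCC, and p-values treat tissues of 1 mouse as independent.

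Each ribosome holds 1 copy of nearly every core protein and several copies of the stalk proteins P1 and P2, so cells make these proteins in near-equal amounts, and their genes are among the most highly expressed in growing cells. Their mRNAs typically begin with a C and a run of pyrimidines, the 5′ terminal oligopyrimidine tract, through which their translation follows mTOR signaling. In the epidermis, dividing basal keratinocytes need a steady supply of new ribosomes. Because many processed pseudogenes carry near-identical copies of these genes, the read count of a member depends on how reads matching several places were counted, which the sources used here do not state.

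Total counts per sample ranged from 775750 (cSCC 20) to 14055206 (AK 10), so a level of 3 counts, taken as the lowest that could be seen, was between 0.213 and 3.87 CPM (read counts relative to the scaled library total). 3 of the 4 cSCC libraries stood apart by genes of other tissues, which touches each result on cSCC below. In cSCC 18, 49.5% of the counts lay in 10 genes, led by the haemoglobin gene Hba-a1 with 16.7% of the counts. In cSCC 20, all 6 lung markers were higher than in any other library, with a summed level of 35805 CPM against 1.73 to 51.7 CPM in the other 19. In cSCC 21, 7 of 8 heart markers were higher than in any other library and Myl7 was at 0, with a summed level of 51880 CPM against 6.6 to 150 CPM in the others. Keratinocyte markers summed to 23900 and 19778 CPM in cSCC 18 and 19 and to 6903 and 5411 CPM in cSCC 20 and 21, where NS spanned 11638 to 26607 CPM. Single markers went both ways within these sums. In cSCC vs. NS, 4 of the 6 had log2 fold changes below 0, with Krt10 at -4.04, while Krt5 and Krt14 were at 0.38 and 0.39. The median of the 6 was -1.08, and it was -0.63 with cSCC 20 and 21 left out.

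The start regions of the members that passed the test in AK vs. NS are shown first, because the pyrimidine tract is the feature this gene family is best known to share. Of the 87 members, 66 were matched in the RefSeq promoter table (GRCm38.p6). In the window from 40 bases before to 20 bases after the annotated start, a C followed by at least 5 more C or T on the sense strand was present in 45 of 66 members (68.2%), against 41.6% of 27025 genes. The ETS-type motif CCGGAAG, searched on both strands of 300 bases around the start, was present in 25 members (37.9%) against 9.12% of genes. The TATA motif TATAAA, searched in the same way, was present in 6 members (9.09%) against 14.2%. These are letter matches at annotated starts and not sites shown to be used. The tract search also took runs that lie wholly before the annotated start, so 45 of 66 is not a count of 5′ terminal oligopyrimidine tracts. 7 of the 10 members lower in AK had a promoter in the table. Capitals mark the longest such run, which Rps28, Rps19 and Rpl37a lacked in this window. Counted from the annotated start, the marked runs begin at -2 in Rps21 and Rpl28, at 8 in Rps12 and at -19 in Rps15. The run in Rps15 ends before that start. The windows lie at chr17:33824543-33824602 (Rps28, minus strand), chr2:180257339-180257398 (Rps21, plus), chr7:24884552-24884611 (Rps19, plus), chr10:23787190-23787249 (Rps12, minus), chr10:80292391-80292450 (Rps15, plus), chr1:72711220-72711279 (Rpl37a, plus) and chr7:4792925-4792984 (Rpl28, plus).
Rps28: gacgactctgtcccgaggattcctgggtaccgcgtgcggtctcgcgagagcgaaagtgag
Rps21: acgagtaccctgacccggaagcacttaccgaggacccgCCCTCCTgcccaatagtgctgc
Rps19: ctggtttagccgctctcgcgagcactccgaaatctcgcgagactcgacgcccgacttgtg
Rps12: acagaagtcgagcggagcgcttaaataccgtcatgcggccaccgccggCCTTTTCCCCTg
Rps15: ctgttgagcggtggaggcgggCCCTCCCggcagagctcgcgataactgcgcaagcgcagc
Rpl37a: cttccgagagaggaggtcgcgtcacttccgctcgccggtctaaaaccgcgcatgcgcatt
Rpl28: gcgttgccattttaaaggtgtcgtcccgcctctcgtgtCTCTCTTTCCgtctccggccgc

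Levels differed widely among the members, also among core proteins that enter the ribosome in near-equal number. On the scale of mean CPM per kb of transcript in NS, high levels were those of Rps14 (1074), Rpl4 (904), Rplp1 (696) and Rplp0 (663). Genes can be compared only roughly on this scale, since the length is usually that of the longest transcript annotated as principal. Rps14 is a core 40S protein, Rpl4 lines the exit tunnel of the 60S subunit, and Rplp0 and Rplp1 form the stalk that recruits elongation factors. At the other end were Rpl10l with 1 count in all 20 libraries, Rpl29 (1.63), Rps4l (2.56), Rps2 (4.06) and Rpl21 (5.06). Rpl29, Rps2 and Rpl21 are core proteins present in every ribosome, and 133, 579 and 847 counts were assigned to them in all libraries together, against 114022 for Rpl4. The -ps rows that the rule left out held 0.019% to 0.116% of the counts of a library, and the reads of these 3 genes were not analysed here. The interquartile range of the log2 member levels within a library had a median of 1.99 in NS, 2.03 in AK and 1.76 in cSCC. Rpl members held 52.6% to 58.3% of the members' counts in all 20 libraries, so both subunits kept nearly the same balance in each.

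The members' share of the counts had a lower median in AK and cSCC than in NS. In NS their share of a library had a lowest value of 1.56%, a median of 2.04% and a highest of 2.39% (1.99% ± 0.315, SD, n = 8). In AK it had a lowest value of 1.23%, a median of 1.45% and a highest of 2.04% (1.51% ± 0.247, SD, n = 8). The ranges overlapped: AK 17, at 2.04%, lay at the NS median, while the 7 other AK ranged up to 1.58%. The shares in cSCC 18, 19, 20 and 21 were 1.24% (95% Wilson interval 1.22% to 1.25%), 1.3% (1.29% to 1.32%), 1.42% (1.39% to 1.44%) and 0.526% (0.521% to 0.531%). All cSCC were below the lowest NS, and cSCC 21, the library with heart genes, was the lowest of the series. With haemoglobin, muscle and lung marker genes left out of the total, the share in cSCC 18 rose to 2.33%, near the top of NS, those in cSCC 19, 20 and 21 were 1.32%, 1.56% and 0.592%, and the AK median was 1.55% against 2.05% in NS. Intervals cover counting error only. In such bulk tissue, fewer cells of a type and less RNA per cell cannot be told apart.

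**Figure D1:**
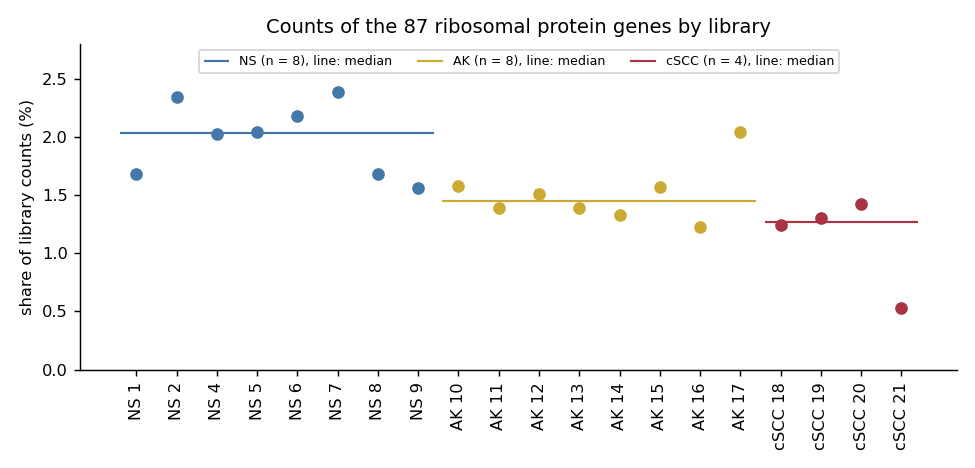
Share of each library's counts (%) that fell in the 87 ribosomal protein genes, with 1 point per library, colored by group, and a line at the group median (2.04% in NS, 1.45% in AK, 1.27% in cSCC). The 95% Wilson intervals are smaller than the points. AK 17 sits at the NS median, and cSCC 21 sits lowest at 0.526%.

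In AK vs. NS, 10 members were lower and none higher in AK, on levels normalized by TMM, which scales libraries by the bulk of genes rather than by their totals. 5 were 40S proteins (Rps28, Rps21, Rps19, Rps12, Rps15) and 5 were 60S proteins (Rpl36, Rpl37a, Rplp1, Rpl28, Rpl32), and their fold changes ran from 0.444 to 0.637. The median log2 fold change of the 84 members tested was -0.41, against -0.04 over all genes tested, and 78 of 84 were below 0. Most of the other members thus lay on the same side without passing the test. Rps4l, Rpl29 and Rpl10l were too low to be tested.

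Rps28, a small protein near the mRNA exit of the 40S subunit, had the largest change. Its level in NS was 25.2 CPM at the lowest, 70.5 at the median and 97.6 at the highest, and in AK 18.6, 25 and 51.9 CPM. Its log2 fold change was -1.17 ± 0.27 (SE, adjusted p = 0.0247, edgeR quasi-likelihood test). Most AK lay below most NS, but NS 1 (25.2 CPM) lay among the AK, and AK 17 (51.9 CPM) lay among the NS. The same 2 libraries closed the gap in other members: in Rps21, a 40S protein, NS spanned 44.5 to 121 CPM (median 79.5) and AK 30.6 to 73.8 CPM (median 42.6), where NS 1 gave the lowest NS and AK 17 the highest AK. Its log2 fold change was -0.87 ± 0.21 (adjusted p = 0.0282, edgeR).

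Rps19 encodes the 40S protein most often mutated in Diamond-Blackfan anaemia. It measured 161 to 347 CPM in NS (median 241) and 90.5 to 210 CPM in AK (median 134). The log2 fold change of Rps19 was -0.78 ± 0.19 (adjusted p = 0.0282, edgeR), and the groups overlapped: NS 9 (161 CPM) lay below AK 10 (210), AK 17 (207) and AK 12 (174), and NS 8 (205) below AK 10 and AK 17. Rplp1, the stalk protein P1, measured 212 to 471 CPM in NS (median 351) and 137 to 314 CPM in AK (median 199), with a log2 fold change of -0.72 ± 0.21 (adjusted p = 0.0483, edgeR). Its stalk partners are Rplp2, with a log2 fold change of -0.49 ± 0.18 (adjusted p = 0.0966, edgeR), and Rplp0, with -0.14 ± 0.15 (adjusted p = 0.599). For the 6 other members called, adjusted p-values were 0.0307 to 0.0476 and log2 fold changes were -0.85 (Rpl36), -0.79 (Rpl37a), -0.73 (Rps12), -0.70 (Rpl28), -0.66 (Rps15) and -0.65 (Rpl32).

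The share of members called can be set beside that of all genes. 10 of 84 members were called lower (11.9%), against 2.38% of the 11677 genes tested, and 0 of 84 were called higher, against 2.26%. With an unadjusted p-value under 0.05, 44 members were lower (52.4%) against 13.1% of genes, and 0 were higher against 11.5%. DESeq2 and limma voom also called 0 members higher. A log2 fold change under 0 was seen in 92.9% of members and in 53% of genes. No member separated the groups: in 0 of 84 were all AK below all NS, which was the case for 0.128% of genes, and in 0 were all AK above all NS, against 0.394% of genes. The members are made together and their changes are not independent of each other.

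The calls sat near the threshold. Each of the 16 libraries was left out in turn: Rps28 was still called in 14 of 16 fits, Rps19 in 11 and Rps21 in 10, and the other 7 members in 4 to 7. The direction of these 10 never changed. The number of members called ranged from 0 (without AK 13, and likewise without NS 4) to 22 (without AK 17, where 3.4% of all genes were called), while the family's median log2 fold change stayed between -0.47 and -0.32.

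Of the 9 members with a known role beyond the ribosome's body, Rps19 and Rplp1 were called. Rps6, the substrate of S6 kinase, measured 247 to 378 CPM in NS (median 279) and 240 to 377 CPM in AK (median 276), with a log2 fold change of -0.03 ± 0.12 (adjusted p = 0.904, edgeR). Rpl5 and Rpl11, which bind Mdm2 together with 5S rRNA when ribosome assembly is disturbed, had log2 fold changes of -0.04 ± 0.15 and -0.07 ± 0.16 (adjusted p = 0.898 and 0.816, edgeR). Rpsa, the 40S protein also known as the laminin receptor, had -0.44 ± 0.20 (adjusted p = 0.18), and Rps27a, made as a fusion with ubiquitin, had -0.34 ± 0.18 (adjusted p = 0.24). Rpl4, the member with the most counts, was 1156 to 1687 CPM in NS and 1275 to 1819 CPM in AK (log2 fold change 0.07 ± 0.13, adjusted p = 0.766, edgeR).

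**Figure D2:**
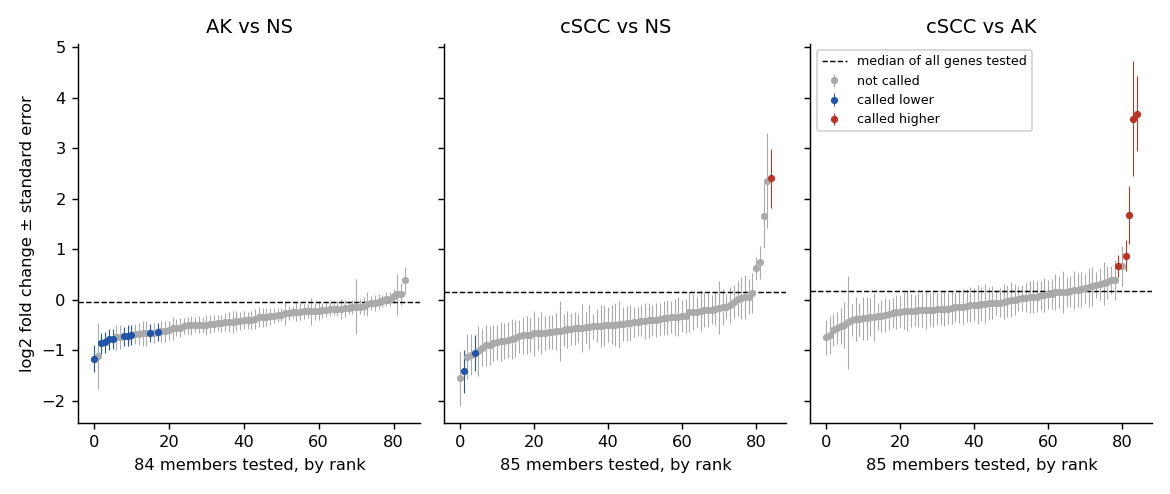
Log2 fold change (± SE) of every member tested in AK vs. NS (84), cSCC vs. NS (85) and cSCC vs. AK (85), ordered by rank, with called members colored and a dashed line at the median of all genes tested (-0.04, 0.14 and 0.17). In the first 2 panels nearly all members lie below the line. In the third they lie closer to it, with 5 called higher at the right.

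The shortest members had the lowest median log2 fold change, a comparison chosen after the called members were seen to be short. Members had a median length of 0.886 kb against 2.57 kb for all genes of the table. The 20 members under 0.6 kb had a median log2 fold change of -0.62 and held 7 of the 10 members called. The 33 members of 0.6 to 1 kb had a median of -0.30, and the 25 members of 1 to 2 kb had a median of -0.27. The order did not go on beyond that: the 5 members of 2 to 4 kb had a median of -0.45, and the 1 longer member had -0.38. These classes rest on the longest principal transcript of a gene, or else its longest coding or other transcript. Examples are 3.71 kb for Rps20 and 5.18 kb for Rps15a. Which transcript was expressed was not tested, so a member may stand in too long a class. Genes outside the family showed a lesser shift of the same kind: the median was -0.33 for 191 genes under 0.6 kb, of which 7.85% were called lower, -0.10 for 594 genes of 0.6 to 1 kb, and -0.03 for 2408 genes of 1 to 2 kb. Among the 595 genes outside the family whose longest transcript of any type was under 1 kb, 30 (5.04%) were called lower and 4 higher. Over the 84 members, Spearman's rho between length and log2 fold change was 0.38, given as a description, since the members share libraries and length bears on fragment recovery. Fragments of selected size were sequenced, and the part of library preparation in these values was not tested. In each length class with 5 or more members, the members' median lay below that of the other genes.

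**Figure D3:**
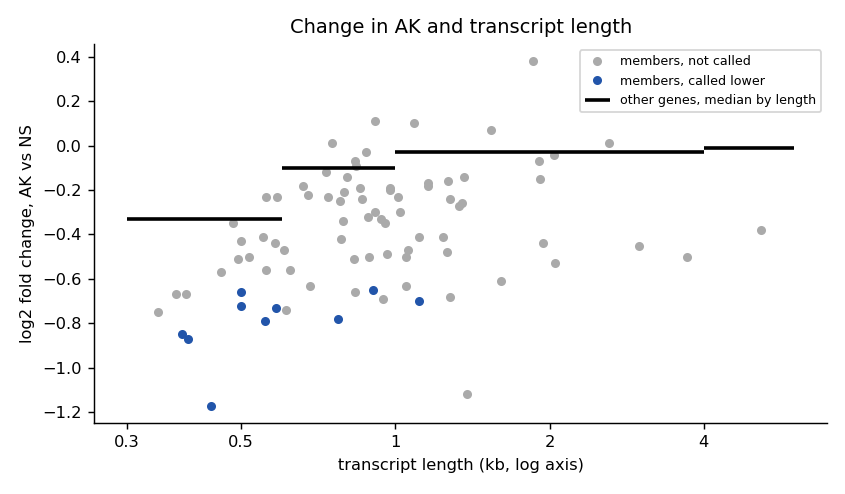
Log2 fold change in AK vs. NS against transcript length (kb, log axis) for the 84 members tested, with called members in blue, and the median of all other genes in each length class as black lines. Most members under 0.6 kb lie below -0.4, and the black line for other genes of that length lies at -0.33.

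Genes that serve the ribosome without being members were not called in AK vs. NS. This held for Fau, a ribosome protein outside the naming rule (-0.28 ± 0.17 on the log2 scale, edgeR adjusted p = 0.331). None was called of 14 translation factors and other genes with the same kind of mRNA start, such as Hnrnpa1 and Tpt1 (median log2 fold change -0.05). Nor were any of 33 ribosome biogenesis genes (median 0.07), 10 growth signaling genes (median 0.08) or 76 mitochondrial ribosomal protein genes (median -0.01), each of which encodes a part of the separate ribosome of mitochondria. DESeq2 and limma voom also called 0 genes of these lists. With an unadjusted edgeR p-value under 0.05, 3 genes of the translation factor list were lower, 5 biogenesis genes higher and 3 lower, 1 growth signaling gene higher, and 1 mitochondrial ribosomal protein gene higher and 7 lower. Of all genes tested, 11.5% were higher and 13.1% lower by that rule. EdgeR called 2.26% of all genes higher and 2.38% lower, and DESeq2 and limma voom called 8.98% and 8.93% in either direction. At such shares, 0 calls in lists of 10 or 14 genes say little. Markers of other tissues and cells differed in median between NS and AK. Skeletal muscle markers summed to 544 to 7536 CPM in NS (median 3019) and 24.9 to 4923 CPM in AK (median 1012), with 0 of 6 called by edgeR, DESeq2 or limma voom, 2 lower at an unadjusted edgeR p-value under 0.05, and 6 of 6 below 0. Red cell markers lay the other way, with medians of 7531 CPM in NS and 19850 CPM in AK. Of these 5, edgeR called 0 (4 higher at an unadjusted p-value under 0.05), DESeq2 2 higher and limma voom 1 higher. Immune markers summed to 1278 to 7013 CPM in NS (median 3390) and 1910 to 8695 CPM in AK (median 6026). Of the 5 tested, edgeR and DESeq2 called 0 (1 higher at an unadjusted edgeR p-value under 0.05) and limma voom 2 higher. The summed keratinocyte markers had medians of 21782 and 21764 CPM, a sum in which single markers went both ways. Of these 6, 3 were below 0, with Krt10 at a log2 fold change of -0.91 and Krt14 at 0.38. EdgeR called 0 of them (1 lower at an unadjusted p-value under 0.05), and DESeq2 and limma voom each called 1 lower. The part of these cells in the members' values was not tested.

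In cSCC vs. NS, most members lay below NS, with a wide spread between the cSCC libraries, and few passed the test. Of 85 members, Rps29 and Rpl23 were called lower (2.35%, against 7.65% of 12097 genes) and Rps4l was called higher (1.18%, against 11.7%). The median log2 fold change was -0.50 against 0.14 over all genes tested, and 75 of 85 members (88.2%) were below 0 against 43.1% of genes. With an unadjusted p-value under 0.05, 14 members were lower (16.5%) against 13.5% of genes, and 5 of 85 were higher, against 2486 of 12097 genes. By that rule the share of members lower stood near that of all genes. The shares called lower and called higher both stood below those of all genes.

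Rps29, a zinc-binding 40S protein, measured 31.7 to 116 CPM in NS (median 81.3) and 58.3, 20.2, 12.5 and 22.5 CPM in cSCC 18, 19, 20 and 21. The 3 cSCC other than cSCC 18 lay below all NS, and its log2 fold change was -1.42 ± 0.43 (adjusted p = 0.0335, edgeR). Rpl23, a 60S protein that also binds Mdm2, measured 211 to 408 CPM in NS (median 346) and 277, 104, 146 and 72.1 CPM in cSCC. The fitted log2 fold change was -1.06 ± 0.35 (adjusted p = 0.0466, edgeR), and cSCC 18 again lay within NS. Rps28 had the lowest fold change of the family, -1.56 ± 0.54, and did not pass (adjusted p = 0.0549, edgeR), with 50, 4.83, 15.9 and 13.6 CPM in the 4 cSCC.

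The cSCC values rested on single libraries. The summed level of the members was 24308 CPM in cSCC 18, the highest of the series, and 11441, 12489 and 6171 CPM in cSCC 19, 20 and 21, where NS spanned 13808 to 24006 CPM. The TMM factor of cSCC 18, the library with 49.5% of its counts in 10 genes, was 0.5086, against 0.8522 to 1.216 in all other libraries. Without cSCC 18, 43 members were called lower and 2 higher (45 of 85, where 25.2% of all genes were called in either direction). Without cSCC 21, 0 were lower and 1 higher (14.2% of all genes called). With cSCC 20 and 21, the libraries with lung and heart genes, left out together, the median log2 fold change was -0.11 against -0.06 over all genes, and 1 member was called (higher, with 12.2% of all genes called). With library size in place of TMM, 32 members were lower and 1 higher (16.2% of all genes called), and all genes shifted to a median of -0.17. Scaled to the summed members instead, 0 were lower and 5 higher, with all genes at a median of 0.81 and 33% of them called.

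In cSCC vs. AK, 5 members were called higher (5.88%, against 16% of 12032 genes) and 0 lower (against 8.34%), and only 1 of the 5, Rps2, is a core protein. With an unadjusted p-value under 0.05, 1 member was lower, Rpl27a, against 13.9% of genes, and DESeq2 and limma voom called 0 lower. The median log2 fold change of the members was -0.09 against 0.17 over all genes, and 60% were below 0, against 42.7% of genes. That median had no stable sign, at 0.10 without cSCC 21, 0.27 without cSCC 20 and 21, and -0.57 without cSCC 18, when 18 members were called lower and 3 higher. These 21 of 86 stand beside 31.4% of all genes called in that fit. With library size in place of TMM, 1 member was called higher and 3 lower (19.8% of all genes called).

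Rpl3l, a paralog that takes the place of Rpl3 in heart and skeletal muscle ribosomes, measured 7.64, 1.32, 1.14 and 186 CPM in the 4 cSCC. In AK its lowest, median and highest levels were 0, 2.47 and 13.2 CPM, and in NS 3.04, 6.89 and 27.3 CPM. Its call in cSCC vs. AK (log2 fold change 3.58 ± 1.14, adjusted p = 0.0338, edgeR) turned to -0.50 without cSCC 21 (adjusted p = 0.818, edgeR). In that library heart markers such as Actc1 (15454 CPM) and Myh6 (11153 CPM) were high. Among NS and AK, Rpl3l was highest where skeletal muscle markers were: NS 1 had 27.3 CPM with markers at 7536 CPM and AK 11 had 13.2 CPM with markers at 4923 CPM, while AK 13 had no count with markers at 68 CPM. The order was not strict. NS 8 had 3.04 CPM, the lowest in NS, with markers at 3058 CPM, and AK 14 had 12.1 CPM with markers at 1823 CPM. Rpl3 itself was not higher in cSCC 21, where it was at its lowest cSCC level of 34.7 CPM, against 98.9 to 131 CPM in NS. That low level was not particular to Rpl3. The summed members were also lowest in cSCC 21, at 6171 CPM against 13808 to 24006 CPM in NS.

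**Figure D4:**
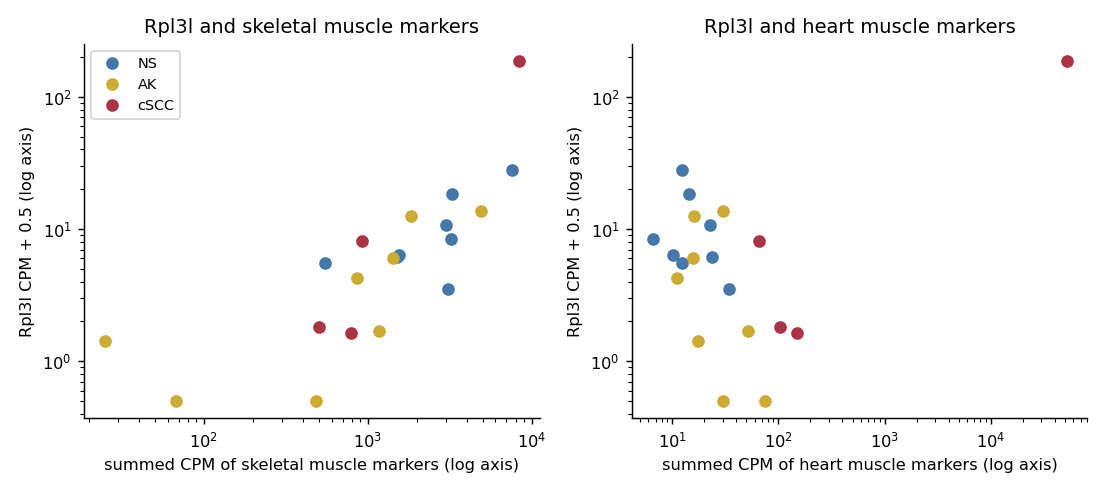
Level of Rpl3l (CPM with a small constant added, log axis) against the summed CPM of 6 skeletal muscle markers (left) and of 8 heart markers (right), with 1 point per library in both panels. cSCC 21 stands apart at 186 CPM in both, and in the left panel NS and AK with more skeletal muscle RNA tend to have more Rpl3l.

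Rps2 is a core 40S protein at the mRNA entry, and its gene (chr17:24718116-24721929, GENCODE M21, GRCm38) lies near that of Rpl3l (chr17:24727820-24736143). It measured 4.86, 11, 2.28 and 33.7 CPM in the 4 cSCC and 2.4 to 8.45 CPM in AK (median 4). Its log2 fold change of 1.67 ± 0.58 (adjusted p = 0.0481, edgeR) fell to 0.40 without cSCC 21 (adjusted p = 0.684, edgeR). At these levels, with many near-identical copies in the genome, its count is uncertain.

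Rps4l, a paralog of Rps4x that GENCODE annotates as a transcribed processed pseudogene (chr6:148354656-148355598), measured 5.56, 4.83, 21.6 and 17 CPM in cSCC. It measured 0.913 to 5.62 CPM in NS (median 1.84) and 0 to 2.6 CPM in AK (median 1.14), so every cSCC library lay above every AK library. Its log2 fold change was 3.68 ± 0.74 vs. AK and 2.40 ± 0.59 vs. NS (adjusted p = 0.00453 and 0.0135, edgeR), and it was still called in 12 of 12 fits that left out 1 library. The 2 highest values belonged to the libraries with lung and heart genes, and without both it was not called, with log2 fold changes of 2.38 vs. AK and 1.13 vs. NS (adjusted p = 0.119 and 0.352, edgeR). A total of 263 counts over 20 libraries stood behind these values.

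Both members that are no ribosome proteins were called higher in cSCC vs. AK. Rpl7l1, a nucleolar protein of 60S assembly, measured 67.7 to 112 CPM in AK (median 92.8) and 186, 137, 81.9 and 131 CPM in cSCC (log2 fold change 0.66 ± 0.22, adjusted p = 0.0417, edgeR). Rps19bp1, which binds Rps19 and takes part in 40S assembly, measured 8.39 to 18.1 CPM in AK (median 13.5) and 28.5, 29, 22.8 and 13.6 CPM in cSCC (log2 fold change 0.87 ± 0.30, adjusted p = 0.0476, edgeR). For both, 3 of the 4 cSCC lay above all AK. Both were still called without cSCC 20 and 21, with log2 fold changes of 0.87 (adjusted p = 0.0191) and 1.13 (adjusted p = 0.038), but in single-library removals they were called in 2 and 1 of 12 fits.

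The other paralogs were not called in any comparison. Rps27l, a paralog of Rps27 known as a p53 target, was the most abundant of them, at 271 to 505 CPM in NS (median 295), 173 to 395 CPM in AK (median 215) and 368, 120, 177 and 111 CPM in cSCC. Its log2 fold change was -0.43 ± 0.20 in AK vs. NS (adjusted p = 0.184, edgeR). Rpl36al, a paralog of Rpl36a, measured 193 to 409 CPM in NS and 185 to 345 CPM in AK (-0.24 ± 0.17 on the log2 scale, adjusted p = 0.396, edgeR). Rps27rt, an intronless copy of Rps27, measured 98.2 to 271 CPM in NS and 69.5 to 222 CPM in AK (-0.67 ± 0.25, adjusted p = 0.114, edgeR), and its reads may be shared with Rps27. Rpl22l1, the paralog of Rpl22, measured 21.4 to 43.7 CPM in NS and 16.8 to 34.1 CPM in AK (-0.41 ± 0.17, adjusted p = 0.148, edgeR). Rpl39l, best known from testis, was below 9 CPM in all libraries but AK 13, where it was 18.9 CPM.

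Genes that build ribosomes were called higher in cSCC at a share near that of all genes. Of 33 ribosome biogenesis genes, 4 were higher in cSCC vs. NS (Nop56, Bop1, Rrp9, Bysl), and the same 4 with Pes1 and Nop2 in cSCC vs. AK, and none was called lower. These shares were 12.1% and 18.2%, against 11.7% and 16% of all genes tested. Without cSCC 18, 4 were higher and 1 lower vs. NS, and 4 higher and 4 lower vs. AK. Bop1, a factor of 60S rRNA processing, had a log2 fold change of 1.42 ± 0.36 vs. NS (adjusted p = 0.0156, edgeR), and Nop56, a core protein of the box C/D particles that methylate rRNA, had 0.97 ± 0.26 (adjusted p = 0.0197). Eif4ebp1, the translational repressor that mTOR phosphorylates, was the 1 growth signaling gene called of 9, at 46.9 CPM in NS and 129 CPM in cSCC on average (log2 fold change 1.52 ± 0.28, adjusted p = 0.00333, edgeR). Of 76 mitochondrial ribosomal protein genes, 13 were higher in cSCC vs. NS and 16 in cSCC vs. AK, with medians of 0.49 and 0.50. These shares were 17.1% and 21.1%, beside the same 11.7% and 16%. Without cSCC 18, 10 were higher and 2 lower vs. NS and 14 higher and 4 lower vs. AK, and with library size alone 6 were higher and 6 lower vs. NS and 8 higher and 4 lower vs. AK. The largest changes vs. NS were those of Mrpl4, Mrpl37 and Mrpl3 (2.16 ± 0.48, 2.11 ± 0.39 and 1.99 ± 0.38, adjusted p = 0.00836, 0.00387 and 0.00414, edgeR), and vs. AK those of Mrpl4, Mrpl37 and Mrpl38 (2.51 ± 0.53, 2.22 ± 0.42 and 1.94 ± 0.53, adjusted p = 0.00559, 0.00342 and 0.017). Without cSCC 21, the library with heart genes, 5 mitochondrial ribosomal protein genes and 1 biogenesis gene were higher than in NS. Without cSCC 20 and 21 the counts were 5 and 5. With limma voom, 4 mitochondrial ribosomal protein genes were called higher in each comparison, and 1 biogenesis gene vs. NS and 2 vs. AK. Of the 14 genes in the translation factor list, edgeR called 0 in either comparison, with 1 higher and 1 lower vs. NS and 2 higher vs. AK at an unadjusted p-value under 0.05, and DESeq2 called 2 higher vs. AK. AK vs. NS and cSCC vs. NS share the NS libraries, and cSCC vs. AK shares its libraries with both, so these comparisons are not independent of each other.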

How the data were processed

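Counts per gene symbol were deposited by the authors without normalization. Reads were trimmed with Trimmomatic (0.36) and aligned with HISAT2 (2.0.5). The paper names GRCm38 and StringTie, while the submitters' processing notes list mm9, hg19 and featureCounts (1.5.2), and strand and the treatment of multi-mapped reads are not given in the sources used here. Groups came from the sample labels. No pair of libraries in a group was alike within counting noise (smallest chi-square per degree of freedom 12.3 over 62 pairs).

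CPM used TMM factors over the 20 libraries. Group pairs were tested with edgeR 4.0.16 (quasi-likelihood, filterByExpr, only the libraries compared, R 4.3.3), with Benjamini-Hochberg adjustment over all genes tested. Calls needed an adjusted p-value of less than 0.05 together with a fold change over 1.5 or under 0.67. SE is the log2 fold change divided by the square root of F. The test was checked on simulated data. Transcript lengths and gene positions are from GENCODE M21, and start regions from RefSeq (GRCm38.p6). The length of a gene was that of its longest principal transcript, or else of its longest coding or other transcript. The alternatives, with DESeq2 1.42.0 and limma 3.58.1, are given in the closing section. 

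The members and lists were chosen with earlier results of these data known. Some genes that the rule names are not reported here. Members named were the 5 highest and 5 lowest per kb in NS, all paralogs and members by symbol alone, all members called, and those with a known role outside the ribosome. In the other lists, those called were named where there were 6 or fewer, and otherwise the 3 largest in each direction. Rpl3, Rpl27a and the genes named only as markers, and Fau in AK, were named outside this rule after their values were seen.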

Additional observations from a re-analysis of the deposited data

Results flagged for a closer look

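In 103 groups of 4 to 10 libraries (the members' share of counts and each named member with enough counts, per group), 15 had 1 library far from the others by Dixon's test. Chance marks about 1 group in 20.

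9 of the 15 concerned AK 17, the library highest in its group. There the members took 2.04% of the counts, against 1.23% to 1.58% in the other AK. The levels in AK 17 were 384 CPM for Rpl23 (others up to 250), 99.2 for Rpl37a (72.7), 59.9 for Rps12 (37.7), 73.8 for Rps21 (49.8), 164 for Rps27a (122), 222 for Rps27rt (132), 51.9 for Rps28 (34.3) and 92.3 for Rps29 (56.7). These values are not independent of each other, as they come from 1 library. Skeletal muscle markers summed to 24.9 CPM in AK 17, the lowest of the 20 libraries, and their part in this was not tested. Without AK 17, 22 members were called lower in AK vs. NS, where 3.4% of all genes were called in either direction.

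In NS, Rps27l was 505 CPM in NS 2 (others 271 to 363) and Rps6 was 378 CPM in NS 7 (others 247 to 296). In AK 13, Rpl39l was 18.9 CPM (others 0.302 to 8.46).

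In cSCC, Rpl3l was 186 CPM in cSCC 21, the library with heart genes, against 1.14 to 7.64 CPM in the others. Rpl5 was lowest there, at 66.5 CPM against 230 to 261. Rpl28 was 47.2 CPM in cSCC 18, the library with most haemoglobin counts, against 31.6 to 34.1.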

How the results depend on the processing

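The family's median log2 fold change stayed below 0 in AK vs. NS and in cSCC vs. NS under every alternative run, while the number of members called did not hold. In AK vs. NS, against 10 members called, there were 18 with DESeq2, 19 with limma voom and quality weights, 28 with library size alone, 27 with genes of at least 10 counts in every sample, 5 without a filter, 20 with unadjusted p-values, 21 with an unadjusted equal-variance test per gene (the paper's rule), 1 when scaled to the summed members (where the median of all genes moves to 0.26) and 0 with all 20 samples in 1 edgeR fit, in which 9 genes of 12847 were called at all. In cSCC vs. NS, 3 were called in the main fit (19.3%). There were 6 with DESeq2 (22.6%), 13 with all 20 samples in 1 fit (25.5%) and 5 with the stricter count filter (22.5%). Library size alone gave 33 (16.2%), and scaling to the summed members gave 5, all higher (33%). The paper's rule gave 29 (28%), unadjusted p-values gave 19 (33.5%), and leaving out cSCC 20 and 21 gave 1 (12.2%). In cSCC vs. AK, 5 were called in the main fit (24.4%). There were 2 with TMM without the members (22.5%), with upper quartile factors (23%), without a filter (16.9%) and without cSCC 20 and 21 (12.6%). All 20 samples in 1 fit gave 3 (29.3%), and the stricter filter (29%) and limma voom (10.6%) gave 1 each. Library size alone gave 4 there (19.8%), of which 3 were lower, where TMM gave 5, all higher. The cause of these differences was not tested.

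Leaving out each library in turn gave 0 to 22 members called in AK vs. NS, 1 to 45 in cSCC vs. NS and 1 to 21 in cSCC vs. AK. In AK vs. NS only leaving out AK 10, NS 1 or NS 8 kept the count within 1.5 times. The most came without AK 17 in AK vs. NS and without cSCC 18 in the others. Of all genes, those fits called 3.4% in AK vs. NS, 25.2% in cSCC vs. NS and 31.4% in cSCC vs. AK. The median in cSCC vs. AK ranged from -0.57 to 0.10 and was above 0 without cSCC 21 and without AK 17 (0.02), and it was 0.27 without cSCC 20 and 21. Rpl3l in cSCC vs. AK ranged from -0.50 to 4.02 and was -0.12 without cSCC 20 and 21. The group medians of the family's share of counts moved by less than 1 SD with other-tissue genes left out of the total or with ribosome proteins alone, although cSCC 18 alone moved from 1.24% to 2.33%. No paired analysis was possible because the groups share no replicate number. Library depth limits the low members most: at 3.87 CPM for 3 counts in cSCC 20, Rps4l, Rpl29, Rps2 and Rpl10l rest on few reads.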
